A study of Mus musculus with 8 samples.

Results

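The interferon regulatory factor (IRF) family was examined in tibialis anterior (TA) muscles of mice after knockdown of *Uba1*, which encodes a ubiquitin-activating enzyme. The genes described are *Irf1*, *Irf2*, *Irf3*, *Irf4*, *Irf5*, *Irf7*, *Irf8* and *Irf9*, 8 of the 41709 gene symbols quantified. *Irf1* was chosen by its lower TPM with *Uba1* siRNAs in these same muscles, so its values are a description without a test, and the other 7 genes were taken as its family. All 8 muscles came from male C57BL/6J mice, 3 months of age, and were collected 7 days after electroporation. In each of 4 mice the TA lettered R received control non-targeting (NT) siRNAs (siNT, n = 4 muscles) and the TA lettered L a SMARTpool, a mixture of siRNAs, against *Uba1* (siUBA1, n = 4 muscles). Leg and siRNA therefore cannot be told apart, and no untreated muscle enters the comparison. The treatment tags of siUBA1 replicates 2, 3 and 4 read UBA2, UBA3 and UBA4, whereas their titles and descriptions read UBA1.

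IRF proteins share a DNA-binding domain that recognizes GAAA-containing elements. IRF3 and IRF7 are activated downstream of nucleic acid sensors and induce type I interferon genes. IRF9 is the DNA-binding subunit of the ISGF3 complex, which drives interferon-stimulated genes, whereas IRF1 is itself induced by interferon-gamma and NF-kB signaling and IRF2 competes with it for the same elements. IRF4, IRF5 and IRF8 are best known from lymphoid and myeloid cells.

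mRNA was measured by RNA-seq and deposited as TPM, a transcript abundance that is divided by transcript length and sums to 1000000 in each muscle, so the number of reads behind a value is unknown. Tests covered the 11530 genes that reached 1 TPM in 4 or more muscles, which include 7 of the IRF genes but not *Irf4*. Differences are log2FC of TPM + 1, siUBA1 over siNT, which understates changes of genes with low TPM. *Uba1* itself was at 60.6, 59.0, 63.6 and 59.1 TPM in siNT replicates 1 to 4 and at 18.1, 6.77, 15.8 and 23.1 TPM in siUBA1 replicates 1 to 4 (log2FC -1.98, standard error 0.290, limma adjusted p = 0.0527, or 0.0278 with the mouse as a block). Over all genes tested the median log2FC was 0.11, and 81.8% of genes had a log2FC above 0. Median-ratio scaling brought the median to 0.0016 and the share above 0 to 50.7%. The 8 genes that mark muscle fibers summed to 125413, 129522, 135802 and 137507 TPM in siNT replicates 1 to 4 and to 127153, 95965, 139335 and 112734 TPM in siUBA1 replicates 1 to 4, with siUBA1 replicates 2 and 4 below every siNT muscle. Of these markers 1 of 8 had a log2FC above 0 and the median was -0.14. The count at an unadjusted p under 0.05 was 0 of 8 with limma (all genes, 18.0%). It was 0 with the mouse as a block (25.2%) and 0 with the Kruskal-Wallis test (19.2%). With median-ratio scaling 4 of 8 were lower at that p (limma), where 6.18% of all genes were. Their part in the levels of the IRF genes was not tested. Whole muscle also holds macrophages and endothelial cells, and in such bulk RNA fewer cells of a type and less RNA per cell cannot be told apart.

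Promoters of IRF genes are themselves known to carry elements for cytokine-activated factors. RefSeq windows of 300 bases, from 250 before to 50 after a start site, were matched for all 8 genes (11 windows, each found once in GRCm39). They were searched on both strands for the gamma-activated sequence (GAS, TTCNNNGAA), the interferon-stimulated response element bound by ISGF3 and IRF proteins (ISRE, a motif of 10 bases) and the NF-kB consensus motif. Of the 11 windows, the 3 below held a match, and they are shown with the matches in capitals because the other members had none. The *Irf1* window lies at chr11:53660591-53660890, that of *Irf2* at chr8:47192530-47192829 and that of *Irf8* at chr8:121462847-121463146, all in GRCm39 and on the plus strand.
Irf1: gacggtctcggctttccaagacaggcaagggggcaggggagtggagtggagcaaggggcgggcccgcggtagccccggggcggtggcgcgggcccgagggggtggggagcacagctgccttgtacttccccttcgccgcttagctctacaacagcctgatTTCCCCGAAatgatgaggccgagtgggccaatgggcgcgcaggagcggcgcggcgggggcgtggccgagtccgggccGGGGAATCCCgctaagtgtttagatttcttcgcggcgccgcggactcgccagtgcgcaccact
Irf2: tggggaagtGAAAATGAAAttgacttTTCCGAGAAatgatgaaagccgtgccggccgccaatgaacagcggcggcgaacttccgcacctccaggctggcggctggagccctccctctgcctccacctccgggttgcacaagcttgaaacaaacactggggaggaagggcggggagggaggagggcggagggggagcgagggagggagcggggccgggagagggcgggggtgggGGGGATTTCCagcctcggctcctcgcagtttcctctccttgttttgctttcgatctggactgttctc
Irf8: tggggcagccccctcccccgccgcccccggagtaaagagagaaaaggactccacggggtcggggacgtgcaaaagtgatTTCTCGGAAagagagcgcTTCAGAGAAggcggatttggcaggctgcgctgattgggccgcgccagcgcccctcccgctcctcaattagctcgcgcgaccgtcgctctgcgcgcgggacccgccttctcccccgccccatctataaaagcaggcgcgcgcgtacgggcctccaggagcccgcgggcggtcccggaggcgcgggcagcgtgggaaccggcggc

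Positions count from the start site, with -1 the base just before it. In the *Irf1* window the capitals are a GAS beginning at -90 and an NF-kB motif beginning at -13. The *Irf2* window held an ISRE from -241, a GAS from -224 and an NF-kB motif from -17. In the *Irf8* window there were 2 GAS, from -171 and -153. No match overlapped another. Of 32544 windows of the same length, 8.33% held a GAS, 3.45% an ISRE, 4.53% an NF-kB motif and 0.387% both a GAS and an NF-kB motif. These matches are letters in a window, and binding was not measured.

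*Irf1*, the activator that opens interferon-gamma-responsive promoters, spans chr11:53660812-53669200 of GRCm39 on the plus strand and overlaps 3 annotated genes on the minus strand, 2 of them lncRNA genes. In the siNT muscles its level was 12.4, 11.1, 12.0 and 11.4 TPM in replicates 1 to 4, and in the siUBA1 muscles 5.30, 4.86, 5.94 and 6.22 TPM. The lowest siNT muscle stood far above the highest siUBA1 muscle, and the siUBA1 muscle was below its contralateral muscle in each of the 4 mice. The means were 11.7 ± 0.560 and 5.58 ± 0.618 TPM (SD, n = 4 each), so that *Irf1* stood at 47.6% of its siNT level. The log2FC was -0.95 with a standard error of 0.0814, or -1.06 relative to the median of all genes. Within the mice the siUBA1 muscle held 0.429, 0.437, 0.495 and 0.546 of the *Irf1* TPM of its contralateral muscle. Of all genes tested, 2.98% were lower in 4 of 4 pairs and 1.01% were lower without overlap of the groups. Since *Irf1* was picked for this fall, nothing is read from these shares.

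**Figure D1:**
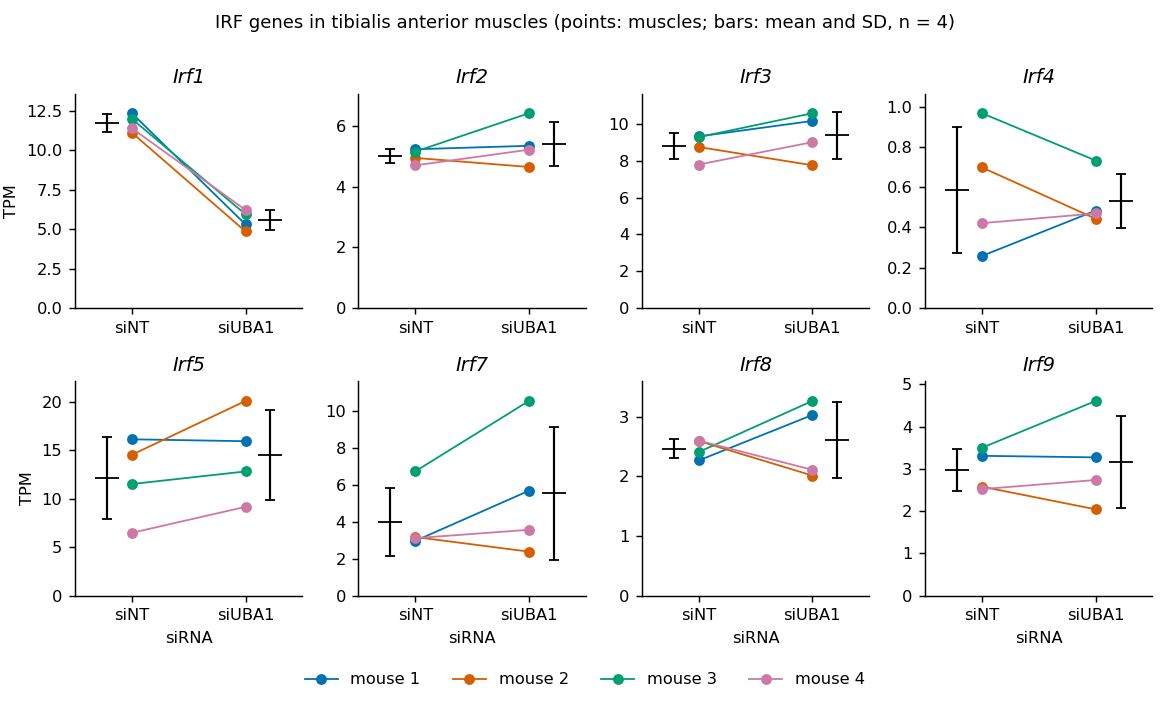
TPM of the 8 IRF genes (y axis, from 0) in each siNT and siUBA1 muscle (x axis), with a line joining the contralateral muscles of a mouse and black bars for the mean and SD of 4 muscles. *Irf1* separates the groups, from 11.1 to 12.4 TPM with NT siRNAs against 4.86 to 6.22 TPM with *Uba1* siRNAs, and the groups of the other 7 genes overlap.

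None of the 6 other tested members passed an adjusted p of 0.05 (limma, Benjamini-Hochberg over all genes), where 0.0260% of the genes tested did. At an unadjusted p under 0.05 the count was 0 of 6 with limma, where 18.0% of all genes had one, and 0 of 6 with a Kruskal-Wallis test, where 19.2% had one (17.5% higher and 1.71% lower). The siNT and siUBA1 values overlapped in all 6, while 10.6% of genes tested were higher and 1.01% lower without overlap. A log2FC above 0 was found for 6 of 6 with the TPM as deposited, where 81.8% of all genes had one, and for 2 of 6, *Irf5* and *Irf7*, with median-ratio scaling, where 50.7% of all genes had one. A p that misses the threshold does not show that a level was equal in both groups, and the 95% interval is given with each member.

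*Irf2* (chr8:47192222-47300501, plus strand), the repressor that competes with IRF1, overlaps 5 annotated genes on the minus strand. It is the member that shares both a GAS and an NF-kB motif with *Irf1* in the windows above. Its mRNA was at 5.25, 4.96, 5.17 and 4.71 TPM with NT siRNAs and at 5.36, 4.66, 6.44 and 5.23 TPM with *Uba1* siRNAs. The siUBA1 muscles included both the lowest and the highest value. Its log2FC of 0.087 (standard error 0.0898, 95% interval -0.12 to 0.29, limma adjusted p = 0.603) came with higher values in 3 of 4 pairs. With median-ratio scaling the log2FC was -0.016.

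The ratio of the activator's mRNA to the repressor's did not overlap between groups. The *Irf1* to *Irf2* TPM ratio was 2.36, 2.24, 2.32 and 2.42 in the siNT muscles and 0.989, 1.04, 0.924 and 1.19 in the siUBA1 muscles. It went from 2.34 ± 0.0732 to 1.04 ± 0.113 (SD, n = 4 each), which puts both mRNAs at nearly equal TPM after knockdown. This ratio contains *Irf1* and is a description.

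*Irf3*, a constitutively present factor that TBK1 phosphorylates, was at 9.34, 8.76, 9.30 and 7.81 TPM with NT siRNAs and at 10.2, 7.77, 10.6 and 9.02 TPM with *Uba1* siRNAs. Mice 1, 3 and 4 were higher in the siUBA1 leg and mouse 2 was lower. The log2FC was 0.079 (standard error 0.101, 95% interval -0.15 to 0.31, limma adjusted p = 0.670). It was -0.031 with median-ratio scaling. *Irf3* (chr7:44647033-44652272, plus strand) overlaps *Bcl2l12* and *Scaf1* on the other strand, and the library kit does not mark strand, so their shared reads cannot be told apart. The same limit holds for *Irf1*, *Irf2*, *Irf5*, *Irf7* and *Irf9*, which also overlap other genes.

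*Irf7*, which is induced by interferon and amplifies its production, had the largest standard error of the tested members. The values were 2.97, 3.18, 6.74 and 3.12 TPM with NT siRNAs and 5.69, 2.39, 10.6 and 3.57 TPM with *Uba1* siRNAs. Both legs of mouse 3 stood high, and siUBA1 replicate 2 was the lowest of all 8 muscles. The log2FC of 0.29 (standard error 0.364, 95% interval -0.53 to 1.11, limma adjusted p = 0.660) became -0.031 without siUBA1 replicate 3 and 0.20 without both muscles of mouse 3. *Irf7* lies at chr7:140842619-140846398 on the minus strand and overlaps *Phrf1* on the plus strand.

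*Irf9* (chr14:55841028-55847812, plus strand, overlapping *Rnf31*), the DNA-binding subunit of ISGF3, was at 3.31, 2.58, 3.50 and 2.52 TPM with NT siRNAs and at 3.27, 2.04, 4.61 and 2.74 TPM with *Uba1* siRNAs. Mouse 3 was again the highest in both legs, and 2 of 4 pairs were higher in the siUBA1 leg. The log2FC was 0.039 (standard error 0.177, 95% interval -0.36 to 0.44, limma adjusted p = 0.913), -0.12 without siUBA1 replicate 3 and -0.053 without both muscles of mouse 3.

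*Irf5* (chr6:29526276-29541870, plus strand, overlapping *Tnpo3* on the minus strand), a mediator of Toll-like receptor signaling through MyD88, had the highest mean of the family in both groups. It was at 16.1, 14.5, 11.5 and 6.48 TPM with NT siRNAs and at 15.9, 20.1, 12.8 and 9.15 TPM with *Uba1* siRNAs. The order of the mice was nearly the same in both legs, with mouse 4 lowest in each, and 3 of 4 pairs were higher in the siUBA1 leg. The log2FC was 0.25 (standard error 0.285, 95% interval -0.39 to 0.89, limma adjusted p = 0.634), and it was 0.0027 without siNT replicate 4, 0.087 without siUBA1 replicate 2 and 0.44 without siUBA1 replicate 4. With the mouse as a block, 1 of the 6, *Irf5*, had an unadjusted p under 0.05, where 25.2% of all genes had one, and its adjusted p was 0.165 (limma).

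*Irf8* (chr8:121463096-121485659, plus strand), a factor of monocyte and dendritic cell development, was at 2.26, 2.59, 2.41 and 2.60 TPM with NT siRNAs and at 3.03, 2.01, 3.26 and 2.11 TPM with *Uba1* siRNAs. The siNT muscles lay close together and inside the range of the siUBA1 muscles, with mice 1 and 3 higher and mice 2 and 4 lower in the siUBA1 leg. The log2FC was 0.040 (standard error 0.123, 95% interval -0.24 to 0.32, limma adjusted p = 0.865).

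*Irf4* (chr13:30933209-30950959, plus strand), a factor of plasma cell and T cell differentiation, did not reach 1 TPM in any muscle. It was at 0.259, 0.698, 0.968 and 0.422 TPM with NT siRNAs and at 0.484, 0.443, 0.733 and 0.470 TPM with *Uba1* siRNAs. The siUBA1 values lay within the siNT range. The difference of -0.033 on the log2 scale gave p = 0.971 (exact permutation test, two-sided, n = 4 muscles each, where 0.0286 is the smallest possible p). The p-values without the mouse as a block, this one among them, measure the spread between these muscles and ignore the pairing of legs. Those with the block measure the spread of the differences within mice.

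**Figure D2:**
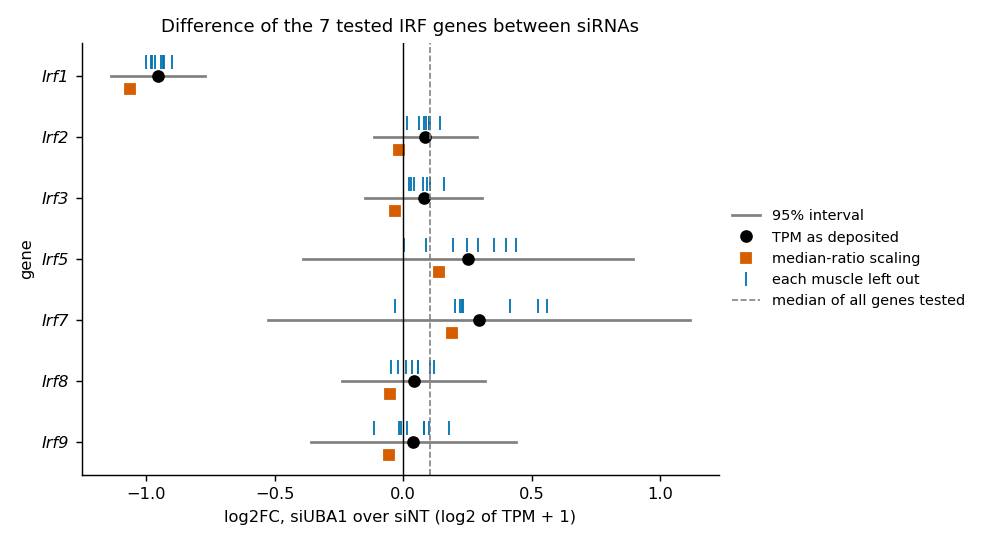
log2FC of the 7 tested IRF genes (y axis) between siUBA1 and siNT muscles (x axis, log2 of TPM + 1), with black points for the TPM as deposited, grey lines for the 95% interval, squares for median-ratio scaling and ticks for the fits without each muscle. *Irf1* lies at -0.95, the intervals of the other 6 span 0, and the dashed line is the median of all genes tested, 0.11.

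Ordered by mean TPM, a per-length level, the family ran *Irf5*, *Irf1*, *Irf3*, *Irf2*, *Irf7*, *Irf9*, *Irf8* and *Irf4* with NT siRNAs. *Irf5* and *Irf1* overlapped in range, as did *Irf2* with *Irf7*, *Irf7* with *Irf9* and *Irf9* with *Irf8*. With *Uba1* siRNAs *Irf1* came after *Irf5* and *Irf3* and overlapped in range with *Irf7*. *Irf7* overlapped with *Irf2*, *Irf9* with *Irf8* and *Irf5* with *Irf3*. In the siNT group 35.6% of the genes tested had a higher mean than *Irf1*, and in the siUBA1 group 59.1% had.

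*Irf1* made up 24.8% ± 2.94 of the summed TPM of the 8 genes in siNT muscles and 12.2% ± 2.65 in siUBA1 muscles (SD, n = 4 each). The shares ranged from 23.0% to 29.2% in the siNT muscles and from 10.8% to 16.2% in the siUBA1 muscles, where replicate 4, the muscle with the least *Irf5*, had the highest. The sum itself was 47.7 ± 5.99 and 46.7 ± 7.0 TPM, with overlapping groups.

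**Figure D3:**
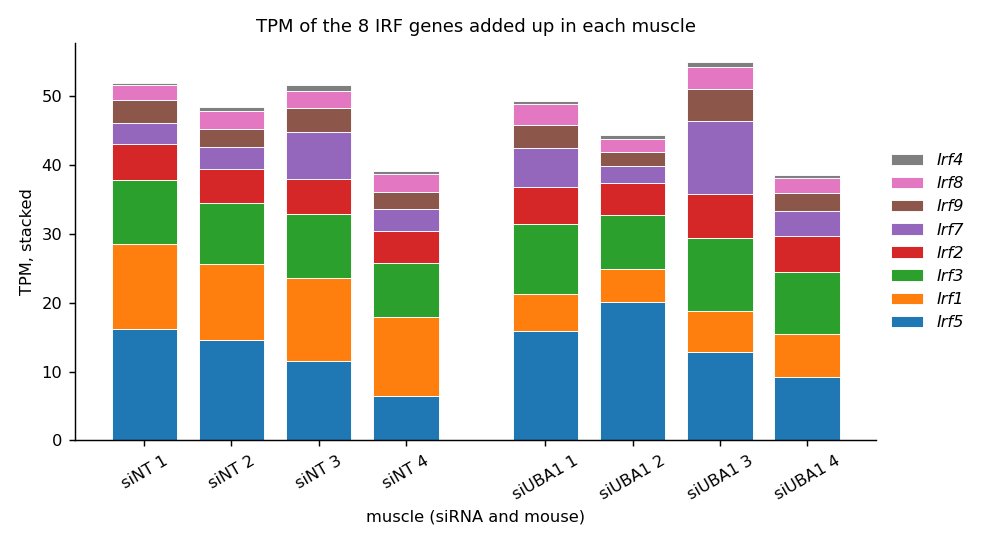
TPM of the 8 IRF genes stacked in each muscle (y axis, TPM; x axis, siRNA and mouse). The *Irf1* segment takes 23.0% to 29.2% of the bar in siNT muscles and 10.8% to 16.2% in siUBA1 muscles, while the height of the bars, 38.5 to 54.9 TPM, overlaps between groups.

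The genes around the family were counted in 6 pathway lists, of which 97 genes were tested. None passed the adjusted p (limma), and 15 had an unadjusted p under 0.05 (9 higher and 6 lower). The Kruskal-Wallis test had 13 at its unadjusted p under 0.05 (all genes, 19.2%). It called 0 after adjustment, but at 4 against 4 muscles its ranks could let no gene pass. Over all genes tested, 16.0% were higher and 1.98% lower at that unadjusted p with limma. The split turned with the scaling, to 1 higher and 11 lower with median-ratio scaling (all genes, 4.43% and 6.18%), and was 26 higher and 7 lower with the mouse as a block (all genes, 22.4% and 2.80%).

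Interferon genes, which IRF3 and IRF7 induce, were listed at or near 0. Of the 10 interferon genes examined, 8 were listed at 0 in all 8 muscles, among them *Ifna1*, *Ifna2*, *Ifna4* and *Ifna5*. *Ifnb1* was above 0 in siNT replicate 4 alone, at 0.0919 TPM. *Ifng* was above 0 in siUBA1 replicates 1 and 3, at 0.0523 and 0.107 TPM. With the depth unknown, the level that a value of 0 allows cannot be given.

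Of 16 tested interferon receptor and JAK-STAT genes, which carry the signal to IRF9 and *Irf1*, 13 had a log2FC above 0, where 81.8% of all genes had one, and the median was 0.15, beside 0.11. Median-ratio scaling left 9 of 16 above 0 (all genes, 50.7%) with a median of 0.030, beside 0.0016. Leaving out siUBA1 replicate 3 left 9 (73.4%) with a median of 0.055, beside 0.077, and leaving out both muscles of mouse 3 left 12 (78.0%) with one of 0.097, beside 0.090. *Socs3*, the feedback inhibitor of JAK signaling, had the largest negative difference. It was at 18.5, 37.9, 22.0 and 34.1 TPM with NT siRNAs and at 10.9, 11.4, 10.1 and 20.1 TPM with *Uba1* siRNAs. It was lower in 4 of 4 pairs, although siUBA1 replicate 4 stood above siNT replicate 1. The log2FC was -1.03 (standard error 0.263, limma adjusted p = 0.150), and the adjusted p was 0.0478 with the mouse as a block.

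On the other side of zero, *Tyk2*, a kinase of the type I interferon receptor, had a log2FC of 0.29 (limma adjusted p = 0.204). *Pias1*, a SUMO ligase, had one of 0.18 (limma adjusted p = 0.277). With median-ratio scaling they were 0.19 and 0.072.

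Of 18 tested nucleic acid sensing genes, the pathway that activates IRF3, IRF5 and IRF7, 14 had a log2FC above 0 and the median was 0.13, beside 81.8% and 0.11 for all genes. The count was 12 (all genes, 50.7%) and the median 0.032 after median-ratio scaling, 13 (73.4%) and 0.063 without siUBA1 replicate 3, and 13 (78.0%) and 0.11 without both muscles of mouse 3. *Mavs*, the mitochondrial adaptor of the RNA sensors, was at 25.1, 24.0, 24.2 and 25.9 TPM with NT siRNAs and at 28.3, 28.1, 27.9 and 26.5 TPM with *Uba1* siRNAs, with no overlap. Its log2FC was 0.15 (limma adjusted p = 0.217), near the median of all genes. *Azi2*, an adaptor of TBK1, also did not overlap and had a log2FC of 0.17 (limma adjusted p = 0.221). With median-ratio scaling these were 0.038 and 0.058.

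Among IRF partners, 9 were tested, 7 had a log2FC above 0 (all genes, 81.8%) and the median was 0.067, below the 0.11 of all genes. After median-ratio scaling 4 of the 9 were above 0 (all genes, 50.7%) and the median was -0.030. These were 5 (73.4%) and 0.015 without siUBA1 replicate 3, and 6 (78.0%) and 0.015 without both muscles of mouse 3. *Irf2bp2*, a corepressor that binds IRF2, was at 16.4, 22.0, 21.3 and 21.4 TPM with NT siRNAs and at 12.7, 11.4, 12.9 and 14.3 TPM with *Uba1* siRNAs. The groups did not overlap, and siNT replicate 1 was below the other siNT muscles. The log2FC was -0.62 (limma adjusted p = 0.0760), and the adjusted p was 0.0472 with median-ratio scaling, 0.0459 with quantile normalization and 0.0455 without siNT replicate 1. It ranged up to 0.286 with another single muscle left out and was 0.373 without both muscles of mouse 3 and 0.153 without the filter. The Kruskal-Wallis test gave 0.180, the lowest adjusted p that its ranks allowed here at 4 against 4 muscles.

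Its relative *Irf2bp1*, also a corepressor of IRF2, was at 8.74, 8.53, 9.12 and 8.82 TPM with NT siRNAs and at 10.4, 9.45, 10.8 and 11.0 TPM with *Uba1* siRNAs. These groups did not overlap either, in the opposite direction (log2FC 0.22, limma adjusted p = 0.177). *Kat2b*, a histone acetyltransferase that interacts with IRF proteins, had a log2FC of 0.28 (limma adjusted p = 0.234). With median-ratio scaling *Irf2bp1* was at 0.11 (limma adjusted p = 0.598) and *Kat2b* at 0.17 (limma adjusted p = 0.712).

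Of 32 tested genes known as targets of IRF1, 25 had a log2FC above 0, where 81.8% of all genes had one, and the median was 0.17, beside 0.11 over all genes. Without siUBA1 replicate 3, 21 of 32 were above 0 (all genes, 73.4%) and the median was 0.030, below the 0.077 of all genes. Without both muscles of mouse 3 these were 21 (all genes, 78.0%) and 0.066, beside 0.090. With median-ratio scaling 22 of 32 were above 0 (all genes, 50.7%) and the median was 0.072. At an unadjusted p under 0.05 from limma, 4 were lower and 3 higher, where 1.98% and 16.0% of all genes were. The counts were 4 lower and 0 higher with median-ratio scaling (all genes, 6.18% and 4.43%), 2 and 3 with the Kruskal-Wallis test (1.71% and 17.5%), and 5 and 8 with the mouse as a block (2.80% and 22.4%). *Vcam1*, a leukocyte adhesion molecule, was at 3.89, 3.09, 3.93 and 3.27 TPM with NT siRNAs and at 2.12, 1.42, 2.77 and 2.33 TPM with *Uba1* siRNAs. Its groups did not overlap (log2FC -0.54, limma adjusted p = 0.150).

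*Ptgs2*, the inducible cyclooxygenase, was at 2.16, 4.95, 7.47 and 2.78 TPM with NT siRNAs and at 1.67, 1.23, 0.603 and 2.64 TPM with *Uba1* siRNAs (log2FC -1.03, limma adjusted p = 0.184). It was lower in 4 of 4 pairs with overlapping groups, and its log2FC was -0.57 without the 2 muscles of mouse 3. *Cdkn1a*, the cell cycle inhibitor p21, had a log2FC of -0.60 (limma adjusted p = 0.241). *Il15*, a cytokine that sustains NK and memory T cells, had one of 0.45 (limma adjusted p = 0.208) and did not overlap.

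Guanylate-binding proteins, effectors against intracellular pathogens, are among the best known products of IRF1 targets. *Gbp2*, *Gbp3*, *Gbp4*, *Gbp5*, *Gbp6* and *Gbp7*, chosen after their values were seen, had log2FC from 0.016 to 0.45, and none passed the adjusted p (limma). With median-ratio scaling *Gbp2* was at -0.092 and the other 5 at 0.15 to 0.35. Without siUBA1 replicate 3 *Gbp2* was at -0.24 and the other 5 at 0.025 to 0.24.

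Among the ISGF3 targets, the interferon-stimulated genes that IRF9 drives, 22 of 22 tested had a log2FC above 0, where 81.8% of all genes had one, with a median of 0.27. With median-ratio scaling 20 of 22 had one, beside 50.7% of all genes. At an unadjusted p under 0.05 the count was 0 with limma without the block (all genes, 18.0%). It was also 0 with median-ratio scaling (10.6%) and with the Kruskal-Wallis test (19.2%). With the mouse as a block it was 6 of 22 (*Dtx3l*, *Eif2ak2*, *Ifi35*, *Ifit3*, *Oasl2* and *Xaf1*), all higher, where 22.4% of all genes were higher. Their summed TPM, over all 30 listed genes, was 130, 118, 183 and 120 in the siNT muscles and 190, 108, 322 and 116 in the siUBA1 muscles. The summed level was highest in siUBA1 replicate 3 and lowest in siUBA1 replicate 2. The same held for *Irf2*, *Irf3*, *Irf7*, *Irf8* and *Irf9*, and for the summed muscle fiber markers. Without siUBA1 replicate 3, 13 of 22 had a log2FC above 0, where 73.4% of all genes had one, and the median was 0.023, beside 0.077 over all genes. Without both muscles of mouse 3 these were 18 of 22, where 78.0% of all genes were above 0, and 0.095, beside 0.090.

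The summed level of the 12 macrophage markers was likewise highest in siUBA1 replicate 3 and lowest in siUBA1 replicate 2. They summed to 224, 260, 468 and 148 TPM in the siNT muscles and to 359, 138, 491 and 168 TPM in the siUBA1 muscles. One by one, 9 of the 12 were highest in siUBA1 replicate 3 and 3 in siNT replicate 3, while 4 were lowest in siUBA1 replicate 2 and 6 in siNT replicate 4. None was at 0 in any muscle, and of the 9 tested, 6 had a log2FC above 0, where 81.8% of all genes had one, with a median of 0.059. With median-ratio scaling 4 of 9 were above 0 (all genes, 50.7%) and the median was -0.060. Without siUBA1 replicate 3 these were 1 of 9 (all genes, 73.4%) and -0.23, and without both muscles of mouse 3 they were 5 of 9 (all genes, 78.0%) and 0.085. The part of macrophage content in the levels of *Irf7*, *Irf9* and the ISGF3 targets was not tested. Lymphocyte markers, which bear on *Irf4*, stayed at 2.24 to 4.16 TPM when summed over 11 genes.

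To describe which genes varied together with each member, log2 values were taken as deviations from their group mean and correlated over the 8 muscles of 4 mice. Such r share libraries and TPM scaling and are given without a test. *Irf7* had a median r of 0.91 with the ISGF3 targets, 0.93 with macrophage markers, 0.94 with fibro-adipogenic markers and 0.49 with all genes tested. Without mouse 3 these were 0.75, 0.87, 0.86 and 0.53. *Irf9* had a median r of 0.87 with the ISGF3 targets, 0.93 with fibro-adipogenic markers and 0.48 with all genes, or 0.64, 0.85 and 0.44 without mouse 3.

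For *Irf2* the median r was 0.84 with the ISGF3 targets, 0.85 with fibro-adipogenic markers and 0.43 with all genes, or 0.48, 0.81 and 0.36 without mouse 3. *Irf1* had 0.34 with the ISGF3 targets, 0.44 with its own target list and 0.13 with all genes. Without mouse 3 these were -0.041, 0.29 and 0.0052, so the first rests on that mouse.

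**Figure D4:**
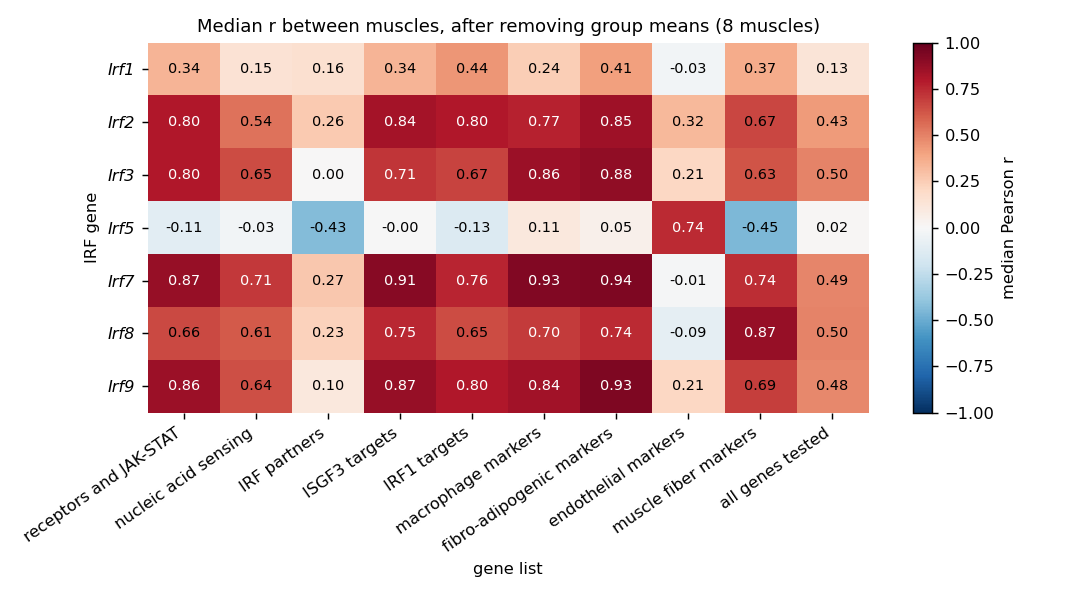
Median Pearson r between each tested IRF gene (rows) and the genes of each list (columns), over deviations from the group means in 8 muscles, with red for positive and blue for negative r. *Irf7* and *Irf9* reach 0.91 and 0.87 with the ISGF3 targets and 0.94 and 0.93 with fibro-adipogenic markers, *Irf1* 0.34 with the ISGF3 targets, and *Irf5* 0.74 with endothelial markers.

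*Irf5* had r from -0.45 to 0.13 with the other 6 tested members. It had a median r of 0.74 with the 8 endothelial markers, 0.11 with macrophage markers and 0.015 with all genes tested. Without mouse 3 these were 0.86, 0.29 and 0.063. With the 3 tested dendritic cell markers the median r was 0.27, and 0.84 without mouse 3. The gene second most like *Irf5* was *Kdr*, the VEGF receptor of endothelial cells and itself on that endothelial marker list. Its r was 0.98, after *B3gntl1* with r = 0.99 and before *Trp53i11*. *Irf5* and *Irf1* had r = -0.45, while *Irf2* and *Irf9* had r = 0.97, *Irf3* and *Irf9* 0.92, and *Irf7* and *Irf9* 0.91.

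Closest to *Irf2* were *AW112010* (r = 0.99), *Nhsl1* and *Mbd6*. *Irf3* was closest to *Man2b2* (r = 0.995), *Scpep1* and *Zfta*. For *Irf7* these were *Clasp1* (r = 0.99), *Pik3ap1* and *Exoc2*, for *Irf8* *Gm42067* (r = 0.99) and *Ctsf*, and for *Irf9* *Axl* (r = 0.99), *Itih5* and *Maz*. *Irf1* had *Gtf3c2* (r = 0.95), *Ino80b* and *Lima1*.

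When the group means were kept, the genes most like *Irf1* over the 8 muscles were *Ppp1r18*, *Ccl2*, *Icam1*, *Rela* and *Nuak2*, with r from 0.98 to 0.99. These r contain the difference between groups for which *Irf1* was picked. *Rela*, the p65 subunit of NF-kB, was at 18.1, 18.4, 17.9 and 18.2 TPM with NT siRNAs and at 14.0, 13.3, 14.7 and 15.6 TPM with *Uba1* siRNAs (limma adjusted p = 0.120). Among siUBA1 muscles *Rela*, *Ppp1r18*, *Ccl2*, *Icam1* and *Uba1*, like *Irf1*, were lowest in replicate 2 and highest in replicate 4, and *Nuak2* was not. Apart from *Uba1*, these genes were picked by their r with *Irf1* over these muscles, so nothing is read from this order. *Ccl2*, a monocyte chemokine, and *Icam1*, an adhesion molecule, stood at 10.6% and 26.2% of their siNT levels.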

How the data were processed

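RNA-seq of 8 TA muscles (4 siNT, 4 siUBA1) was analyzed. The authors prepared libraries with the TruSeq RNA Sample Prep v2 kit, which does not mark strand, trimmed paired-end reads, aligned them in CLC Genomics Workbench to GRCm39, and deposited 1 TPM value per gene and muscle. The annotation and the counting of shared reads are not given in the sources used here. Depth is unknown, so whether read counts or the number of muscles limits the precision cannot be told.

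From the TPM, log2(TPM + 1) was computed, genes that reached 1 TPM in 4 or more muscles were kept, and limma 3.58.1 in R 4.3.3 (lmFit, eBayes with trend) was fitted without covariates, with Benjamini-Hochberg adjustment over 11530 genes. The fit was tested on simulated data. The study's methods name a Kruskal-Wallis test on log-transformed TPM, which was run as an alternative. *Irf4*, below the filter, was compared with an exact permutation test. Gene positions come from GENCODE M39 (GRCm39). Promoter windows come from a RefSeq table of GRCm38.p6, and their GRCm39 positions from an exact match of the sequence.

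Named were the 8 members, *Uba1*, up to 4 genes per pathway list (largest log2FC among those at an unadjusted p under 0.05 with the same sign in 4 of 4 pairs) and the genes with the highest r to each tested member (3 each, and 5 more for *Irf1*), of which 1 is not reported here. Members, lists and motifs were chosen with earlier results of these data known. Alternatives were a pseudocount of 0.1, no filter, a mean of 5 TPM or more, median-ratio scaling, quantile normalization, rescaling without mitochondrial genes, a replicate block with and without median-ratio scaling, and leaving out each muscle. Leaving out both muscles of replicate 3 was chosen after seeing the data. Equal replicate numbers mark the contralateral legs of a mouse in the labels, and after group means were removed, the r of such legs over all tested genes was -0.00037, 0.20, 0.58 and 0.54 in mice 1 to 4.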

Additional observations from a re-analysis of the deposited data

Results flagged for a closer look

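In groups of 4 muscles, a muscle far from the other 3 was looked for in the members, *Uba1* and the named list genes (Dixon's test at 95%, 42 groups). It was found in 4 groups, where 2.1 would be found by chance. *Irf7* stood at 6.74 TPM in siNT replicate 3. *Irf4* stood at 0.733 TPM in siUBA1 replicate 3, the muscle of the same mouse. *Socs3* was at 20.1 TPM in siUBA1 replicate 4, above its other siUBA1 values. *Irf2bp2* was at 16.4 TPM in siNT replicate 1, below its other siNT values.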

How the results depend on the processing

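The log2FC of *Irf1* was -1.06 with a pseudocount of 0.1, with median-ratio scaling and with that scaling inside the block, and from -1.0 to -0.90 with muscles left out. The count of other members that passed was 0 in all 18 alternatives. Of these, the Kruskal-Wallis test could pass no gene at 4 against 4 muscles. *Irf7*, *Irf8* and *Irf9* were not tested among genes averaging 5 TPM or more. With median-ratio scaling, and with it in the replicate block, *Irf2* was at -0.016, *Irf3* at -0.031, *Irf8* at -0.050 and *Irf9* at -0.055, and with quantile normalization at -0.027, -0.020, -0.072 and -0.080. With muscles left out, *Irf5* ranged from 0.0027 (without siNT replicate 4) to 0.44, *Irf7* from -0.031 to 0.56, *Irf8* from -0.054 to 0.12, *Irf9* from -0.12 to 0.18 and *Irf4* from -0.14 to 0.077. Over the same fits *Irf2* ranged from 0.014 to 0.145 and *Irf3* from 0.023 to 0.158. Of the pathway genes, 1 passed with median-ratio scaling and 1 with quantile normalization (*Irf2bp2* in both), 1 with the replicate block (*Socs3*), 3 with the block and median-ratio scaling (*Socs3*, *Irf2bp2* and *Vcam1*), and 0 to 1 with muscles left out. Of all genes tested, 11 passed among genes averaging 5 TPM or more, 28 after quantile normalization, 23 with median-ratio scaling, 14 without mitochondrial genes, 57 with the replicate block, 76 with the block and median-ratio scaling, 0 with the Kruskal-Wallis test (2210 at an unadjusted p under 0.05) and 0 to 39 with muscles left out, the most without siUBA1 replicate 4. *Uba1* passed at -1.98 among genes averaging 5 TPM or more and with the replicate block, -2.09 with median-ratio scaling with or without the block, -2.06 with quantile normalization and -2.0 without mitochondrial genes, and ranged from -2.18 to -1.64 with muscles left out, where it passed in 2 of 9 fits (without siUBA1 replicate 2 or 4) and its limma adjusted p reached 0.294. It did not pass with no filter (0.131) or a pseudocount of 0.1 (0.0666). The Kruskal-Wallis test gave *Uba1* 0.180, as it gave *Irf2bp2*, *Vcam1* and *Mavs*, whose groups did not overlap either. Its ranks at 4 against 4 muscles allowed no lower adjusted p here, so *Uba1* could not pass that test. The block also put *Ppp1r18* (limma adjusted p = 0.0473) and *Nuak2* (0.0390) past the threshold, from 0.0522 each, and changed no other call among the genes named. The causes were not tested.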

Other observations

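The neutrophil markers *S100a8*, *S100a9*, *Ly6g*, *Retnlg*, *Mmp8* and *Csf3r*, whose cells use IRF8 as a brake on their development, summed to between 16.4 and 53.6 TPM in the siNT muscles and between 28.2 and 64.1 TPM in the siUBA1 muscles. Of these markers 4 were tested, and all 4 had a log2FC above 0 (all genes, 81.8%), with a median of 0.48, beside 0.11. The median was 0.38, beside 0.0016, with median-ratio scaling and 0.17, beside 0.090, without both muscles of mouse 3. *Irf8* had a median r of 0.35 with the 4 tested neutrophil markers, and of -0.061 without both muscles of mouse 3. The 3 tested dendritic cell markers had a median r of 0.50 with *Irf8*, beside 0.50 with all genes tested, and of 0.21, beside 0.50, without mouse 3. Markers of muscle fibers had a median r of 0.87 with *Irf8* and -0.45 with *Irf5*, over the same 8 muscles and without a test. Without mouse 3 these were 0.81 and -0.51. The r was 0.74 with *Irf7*, 0.69 with *Irf9*, 0.67 with *Irf2*, 0.63 with *Irf3* and 0.37 with *Irf1*. In the same order, these were 0.87, 0.56, 0.45, 0.49 and 0.25 without mouse 3.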
